A study of Mus musculus with 8 samples.

Results

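Genes that control the removal of mitochondria by autophagy and the fusion and fission of mitochondria were followed in the left ventricular RNA of 8 mice. They were Pink1, Bnip3, Fundc1, Sqstm1, Gabarapl1, Ulk1, Mfn1, Mfn2, Opa1 and Dnm1l, picked by gene symbol out of 19933 measured genes, and each of these 10 was measured on all 8 arrays. Pink1 and the 3 fusion genes Mfn1, Mfn2 and Opa1 read lower in both PlGF hearts than in any control heart, by 1.26- to 1.54-fold on average. So did Ulk1, by 1.18-fold, and so did 19.5% of all genes. Bnip3, Gabarapl1, Fundc1, Sqstm1 and Dnm1l overlapped with control. Most of the difference came from 1 of the 2 PlGF hearts, and 0 of the 10 genes passed the adjusted test across all genes. Of 81 other genes of these pathways 1 passed it, Oma1, the gene for a protease that cuts OPA1. Oma1 was lower in PlGF but missed the threshold when any 1 control or PlGF/RGS4 array was left out.

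The arrays were Affymetrix Mouse Gene 1.0 ST, which read whole transcripts, with 1 array per heart and total RNA of the left ventricle. There were 2 PlGF mice, 3 mice labelled PlGF/RGS4 and 3 controls, all C57/Bl6, aged 11 weeks, with 6 weeks of transgene expression. In PlGF mice, placental growth factor is expressed in cardiomyocytes by a Tet-OFF system whose driver, tTA, is under the αMHC promoter and is held off by doxycycline in the diet. PlGF/RGS4 mice carry in addition RGS4, a protein that shortens G protein signalling, and controls were littermates that carry only 1 of the transgenes, the driver or the responder. Normal chow was given from 5 weeks of age on to induce the transgene, which is thus made in cardiomyocytes, whereas the arrays read all cells of the ventricle. The labels name the hearts as biological replicates, without their sex.

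PINK1 is a kinase that is imported and degraded by healthy mitochondria and gathers on the surface of damaged ones, where it phosphorylates ubiquitin and recruits the ubiquitin ligase Parkin. BNIP3 and FUNDC1 are outer membrane receptors that bring mitochondria to the autophagosome without Parkin, p62 (Sqstm1) links ubiquitin-tagged cargo to the ATG8 proteins, of which GABARAPL1 is one, and ULK1 is the kinase that starts autophagosome formation. The mitofusins MFN1 and MFN2 fuse outer membranes, OPA1 fuses inner membranes and shapes the cristae, and DRP1 (Dnm1l) constricts mitochondria for fission. The heart is packed with mitochondria, and loss of the mitofusins or of PINK1 harms the heart in mice.

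The sequences just upstream of the transcription start are shown for Pink1, Mfn1, Mfn2 and Opa1, because these were the members lowest in PlGF, and for Bnip3 as a receptor gene that overlapped with control. They are the 250 bases before the start in RefSeq on GRCm38.p6 (Pink1 chr4:138326297-138326546, minus strand, Mfn1 chr3:32529232-32529481, plus strand, Mfn2 chr4:147904910-147905159, minus strand, Opa1 chr16:29579084-29579333, plus strand, and Bnip3 chr7:138909507-138909756, minus strand), written along the gene's strand. Capitals mark matches on either strand to any of 6 motifs.
Pink1: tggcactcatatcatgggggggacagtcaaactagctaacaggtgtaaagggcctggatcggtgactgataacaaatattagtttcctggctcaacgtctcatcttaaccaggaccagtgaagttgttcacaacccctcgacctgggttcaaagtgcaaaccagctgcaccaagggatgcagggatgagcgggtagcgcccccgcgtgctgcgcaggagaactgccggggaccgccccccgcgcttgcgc
Mfn1: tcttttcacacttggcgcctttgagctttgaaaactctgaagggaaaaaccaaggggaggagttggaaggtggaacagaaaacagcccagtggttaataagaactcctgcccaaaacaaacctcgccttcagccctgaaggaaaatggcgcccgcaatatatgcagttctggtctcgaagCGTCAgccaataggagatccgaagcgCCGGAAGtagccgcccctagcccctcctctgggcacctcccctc
Mfn2: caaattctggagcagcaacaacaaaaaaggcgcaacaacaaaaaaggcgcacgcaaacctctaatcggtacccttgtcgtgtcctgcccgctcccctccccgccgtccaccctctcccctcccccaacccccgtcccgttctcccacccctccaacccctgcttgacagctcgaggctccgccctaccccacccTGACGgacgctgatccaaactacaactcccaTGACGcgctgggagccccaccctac
Opa1: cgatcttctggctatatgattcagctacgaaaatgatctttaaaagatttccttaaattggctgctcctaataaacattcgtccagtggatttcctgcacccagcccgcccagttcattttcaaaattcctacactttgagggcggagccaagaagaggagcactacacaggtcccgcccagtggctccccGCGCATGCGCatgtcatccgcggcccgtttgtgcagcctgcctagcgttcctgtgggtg
Bnip3: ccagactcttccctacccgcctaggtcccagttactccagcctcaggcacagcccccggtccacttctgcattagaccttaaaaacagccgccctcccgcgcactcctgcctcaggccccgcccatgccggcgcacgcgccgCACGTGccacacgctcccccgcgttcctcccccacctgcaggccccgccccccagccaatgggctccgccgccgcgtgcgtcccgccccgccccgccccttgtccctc
All 10 members had a window in the RefSeq table, 13 windows in all, since Mfn2 had 3 starts and Dnm1l had 2. The motif CACGTG, bound by TFEB, which drives lysosome genes, was found in the window of Bnip3 alone, and 6.02% of all 32851 windows held it. GCGCATGC, the core of the element bound by NRF1, stood in the window of Opa1 alone, with its matches on the 2 strands overlapping each other, against 2.26% of all windows. CCGGAAG, the core bound by ETS factors such as GABPA, was in that of Mfn1, against 6.91%. TGACG, the core of the element bound by CREB, was in those of Mfn1 and Mfn2, against 17.8%, and no match of 1 motif overlapped a match of another. The FoxO element GTAAACA (3.17% of all windows) and the ERR element TCAAGGTCA (0.387%) were in 0 member windows. No motif was thus shared by the 4 genes shown that read low in PlGF, and these arrays hold no binding data.

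The labels were checked against the transgenes. Pgf, the gene of the PlGF transgene, had intensities of 4136.3 and 916.6 in the PlGF hearts and 300, 229 and 210.8 in the hearts labelled PlGF/RGS4, against 211.1, 348.9 and 387.1 in controls, so the arrays labelled PlGF/RGS4 go against their label, and Rgs4 was not higher in them either (log2 fold change −0.23 ± 0.14, SE, limma adjusted p = 0.995). PlGF replicate 1, with the higher Pgf, also stood apart from the other arrays: its correlation with arrays outside its group averaged 0.974, and the same average was 0.9906 to 0.993 for each of the remaining 7. Xist was low (26.9 to 50.8) in 1 heart of each group, namely PlGF replicate 1, PlGF/RGS4 replicate 2 and control replicate 2, and 2580.8 to 2958.5 in the other 5. Cell type markers differed with PlGF as well. The summed intensity of 11 leukocyte markers was 12193.9 and 6409.7 in PlGF hearts and 3151.8 to 4158.3 in hearts labelled PlGF/RGS4, against 3517.1 to 3758.1 in controls, with 6 of the 11 called higher in PlGF than in control. That of 10 cardiomyocyte markers was 116120.3 and 134848.4 in PlGF and 133859.6 to 135487.9 on the arrays labelled PlGF/RGS4, against 136066.1 to 137444.3 in controls, with 0 of 10 called. In the mean of both PlGF hearts 10 of 10 were below control. In PlGF replicate 2 alone 3 of them were above the control mean, and the median was −0.005, against −0.17 in PlGF replicate 1. The sum of 6 endothelial markers was 12482.1 and 12146 in PlGF and 10007.3 to 10497.6 on the arrays labelled PlGF/RGS4, against 9813.2 to 10481 in controls, with 1 of 6 called, Cdh5, at 0.30 ± 0.05 (limma adjusted p = 0.0374). Of these 6, 2 were below 0, Pecam1 at −0.03 and Tek at −0.02. Of 6 fibroblast markers 0 were called and 3 were higher at an unadjusted p under 0.05. Another 2 were below 0, Pdgfra at −0.20 and Dcn at −0.14, and the median of the 6 was 0.34. Their sums were 9690.5 and 9911.3 in PlGF and 9647.7 to 10702.6 on the arrays labelled PlGF/RGS4, against 9575.6 to 10259.2 in controls. No marker was at 0 on any array, and the part of leukocyte, endothelial and fibroblast markers in the results was not tested. In such bulk tissue, fewer cells of a type and less RNA per cell cannot be told apart.

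Taken over the 10 members, PlGF hearts differed from controls in the direction of lower values. The median log2 fold change of the members was −0.14, against −0.03 for all 19933 genes. Relative to the control mean it was −0.26 in PlGF replicate 1 and −0.08 in PlGF replicate 2. At a limma adjusted p under 0.05, 0 of 10 members were called, and 2.53% of all genes were. At an unadjusted p under 0.05, 4 of 10 were lower (Pink1, Mfn1, Mfn2 and Opa1) and 0 were higher, while 11.7% of all genes were lower and 10.9% higher. The members were chosen with earlier results of these data known, so these shares are a description and not a test. Both PlGF arrays lay below all 3 control arrays for 5 of 10 members, these 4 and Ulk1, as they did for 19.5% of all genes. The exact permutation test of 2 arrays against 3 cannot give a p under 0.1, which Pink1, Mfn1, Mfn2 and Opa1 reached (p = 0.1 each, two-sided exact permutation test). If every array was centred on its median, 70.4% of all genes at an unadjusted p under 0.05 were lower in PlGF, against 51.9% without centring.

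**Figure D1:**
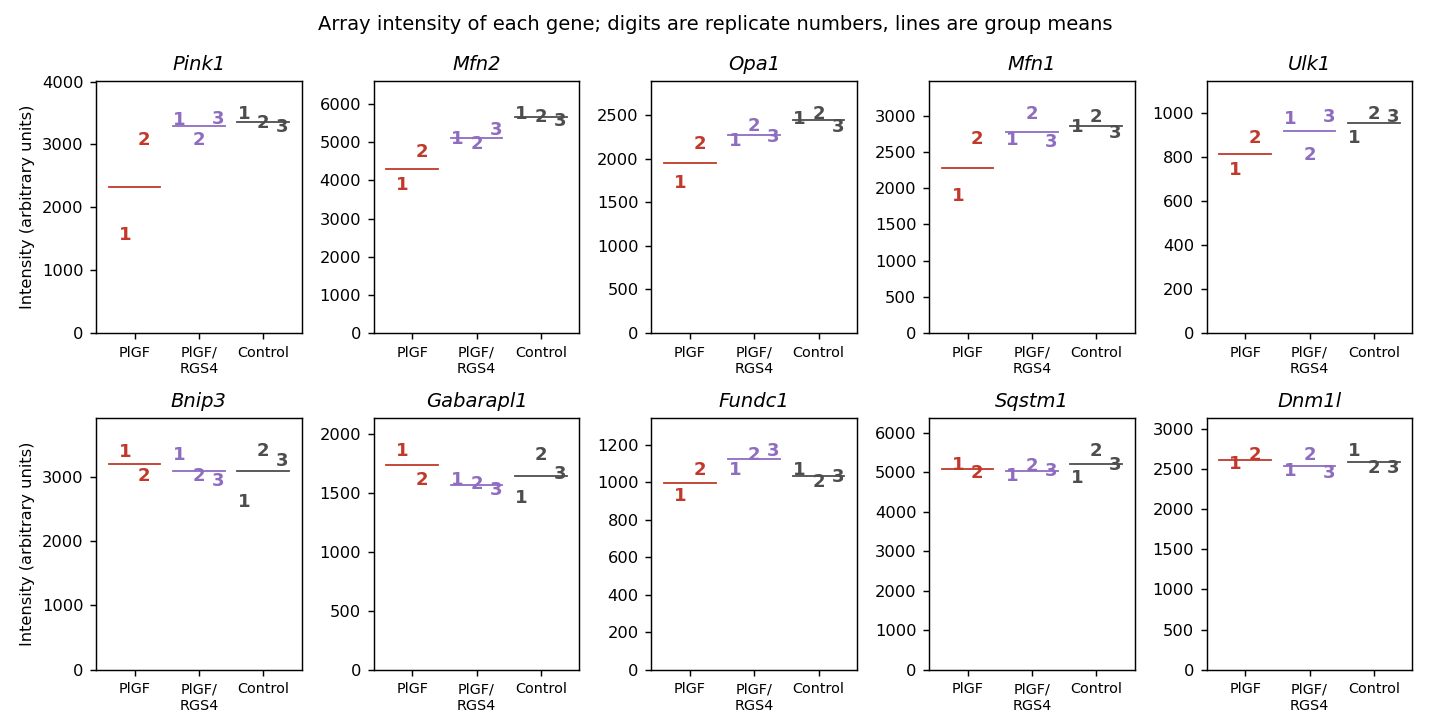
Array intensity (arbitrary units, linear axis that starts at 0) of each of the 10 genes in PlGF, PlGF/RGS4 and control hearts. Each digit is 1 array, placed at its value and numbered by replicate, and each line is the group mean; PlGF replicate 1 is the lowest array for Pink1, Mfn2, Opa1, Mfn1, Ulk1 and Fundc1.

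Pink1, the sensor kinase, read 1559.3 and 3070.3 in the PlGF hearts and 3386.7, 3077.7 and 3407.9 in the hearts labelled PlGF/RGS4, against 3485.3, 3335.4 and 3270 in controls. One PlGF heart was thus far below all other arrays and the other was close to PlGF/RGS4 replicate 2, just under the lowest control. The log2 fold change of PlGF against control was −0.62 ± 0.24 (SE, 95% confidence interval −1.18 to −0.06, limma adjusted p = 0.184). It was −1.11 without PlGF replicate 2 (limma adjusted p = 0.000251) and −0.13 without PlGF replicate 1 (limma adjusted p = 0.546), so 1 heart decides its size. Between the low-Xist hearts of PlGF and control Pink1 differed by −1.10 (log2), and between the high-Xist hearts by −0.14. Each of these comparisons holds 1 PlGF heart, replicate 1 for low Xist and replicate 2 for high Xist. With Xist as a term the value was −0.57 (limma adjusted p = 0.178). Centring of each array on the 10 cardiomyocyte markers, chosen after seeing the data, left −0.46 (limma adjusted p = 0.175). These markers were uneven in PlGF versus control: Ryr2 stood at −0.73, Pln at −0.27 and Atp2a2 at −0.25, and the others at −0.12 to −0.003. The centring thus leans on these 3, and whether it reflects cardiomyocyte content was not tested.

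The mitophagy receptors did not show such a difference. Bnip3 read 3383.5 and 3011.1 in the PlGF hearts and 3338.2, 3003.1 and 2934.5 in the hearts labelled PlGF/RGS4, against 2602.4, 3405.2 and 3245.3 in controls. The groups overlapped, and the lowest of the 8 values was that of control replicate 1. PlGF differed from control by 0.06 ± 0.12 (log2, SE, interval −0.23 to 0.35, limma adjusted p = 0.806). The dimmer second probe set of Bnip3 gave 0.11 ± 0.12 (limma adjusted p = 0.636). Fundc1 read 926.8 and 1065.1 in PlGF and 1065.1, 1142.6 and 1167.8 on the arrays labelled PlGF/RGS4, against 1065.1, 1002.3 and 1025.9 in controls. Its lowest value was that of PlGF replicate 1, its 2 highest were hearts labelled PlGF/RGS4, and the value 1065.1 came back in all 3 groups. PlGF differed from control by −0.05 ± 0.07 (interval −0.23 to 0.12, limma adjusted p = 0.704), and with centring on the cardiomyocyte markers the sign turned (0.11).

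Among the autophagy members, Ulk1 read low in both PlGF hearts, whereas Sqstm1 and Gabarapl1 overlapped with control. Ulk1 had 739.2 and 885.9 intensity units in PlGF hearts and 971.5, 807.5 and 981.6 in hearts labelled PlGF/RGS4, against 887.1, 996 and 981.9 in controls. PlGF replicate 2 was within 2 units of the lowest control, and PlGF/RGS4 replicate 2 lay below both. Its log2 fold change was −0.24 ± 0.11 (SE, limma adjusted p = 0.268), −0.37 without PlGF replicate 2, −0.11 without PlGF replicate 1, and −0.07 with centring on the cardiomyocyte markers. Sqstm1 (p62) lay between 4857.7 and 5547.5 on all 8 arrays, both extremes being controls, and PlGF differed from control by −0.03 ± 0.07 (interval −0.18 to 0.12, limma adjusted p = 0.811), a sign that turned under quantile normalization (0.022) and under centring on the cardiomyocyte markers (0.13). Gabarapl1 read 1858.5 and 1612.5 in PlGF and 1612.9, 1575.8 and 1522.5 on the arrays labelled PlGF/RGS4, against 1454.7, 1824.7 and 1662.4 in controls. Its highest value was thus that of PlGF replicate 1, the array on which Pink1, Fundc1 and Ulk1 were at their lowest. The change from control was 0.08 ± 0.10 (interval −0.16 to 0.32, limma adjusted p = 0.687).

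All 3 fusion genes were lower in both PlGF hearts than in every control. Mfn2, the mitofusin that also tethers mitochondria to the endoplasmic reticulum, read 3868 and 4748.3 in PlGF hearts and 5076.7, 4942.2 and 5318.2 in hearts labelled PlGF/RGS4, against 5742.4, 5661.6 and 5560.9 in controls. The 3 groups did not overlap: the PlGF arrays were lowest, those labelled PlGF/RGS4 came next and the controls were highest. The log2 fold change of PlGF from control was −0.40 ± 0.09 (SE, limma adjusted p = 0.0602), and it remained −0.25 without PlGF replicate 1. It was −0.55 between the low-Xist hearts and −0.25 between the high-Xist hearts, again with 1 PlGF heart in each. With Xist as a term it was −0.38 (limma adjusted p = 0.0584), and with centring on the cardiomyocyte markers −0.24 (limma adjusted p = 0.113). With each array centred on its median Mfn2 was called (limma adjusted p = 0.0481), the single member called under any setting that kept all 8 arrays.

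Mfn1, the other mitofusin, read 1884.4 and 2674.7 in PlGF hearts and 2664.2, 3023.8 and 2630 in hearts labelled PlGF/RGS4, against 2838.7, 2985.1 and 2757.2 in controls. PlGF replicate 1 was the low array, and PlGF replicate 2 lay within the range of the arrays labelled PlGF/RGS4. Its log2 fold change was −0.35 ± 0.14 (SE, limma adjusted p = 0.198). It was −0.60 without PlGF replicate 2, −0.10 without PlGF replicate 1 and −0.19 with centring on the cardiomyocyte markers. Opa1, the inner membrane fusion gene, read 1725.9 and 2169.7 in PlGF and 2201.2, 2379.8 and 2248.2 on the arrays labelled PlGF/RGS4, against 2453.7, 2515.5 and 2369.5 in controls. Both PlGF values were below all 6 others. The change from control was −0.34 ± 0.10 (SE, limma adjusted p = 0.102). It was −0.50 without PlGF replicate 2, −0.17 without PlGF replicate 1 and −0.17 with centring on the cardiomyocyte markers.

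Dnm1l, the fission gene, read 2557.2 and 2677.2 in PlGF hearts and 2479.8, 2669.6 and 2450.9 in hearts labelled PlGF/RGS4, against 2729.8, 2518.3 and 2510.9 in controls, and the groups overlapped. The change from control was 0.02 ± 0.06 (log2, SE, 95% confidence interval −0.13 to 0.17, limma adjusted p = 0.893), and its sign turned with centring on the array median (−0.034).

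**Figure D2:**
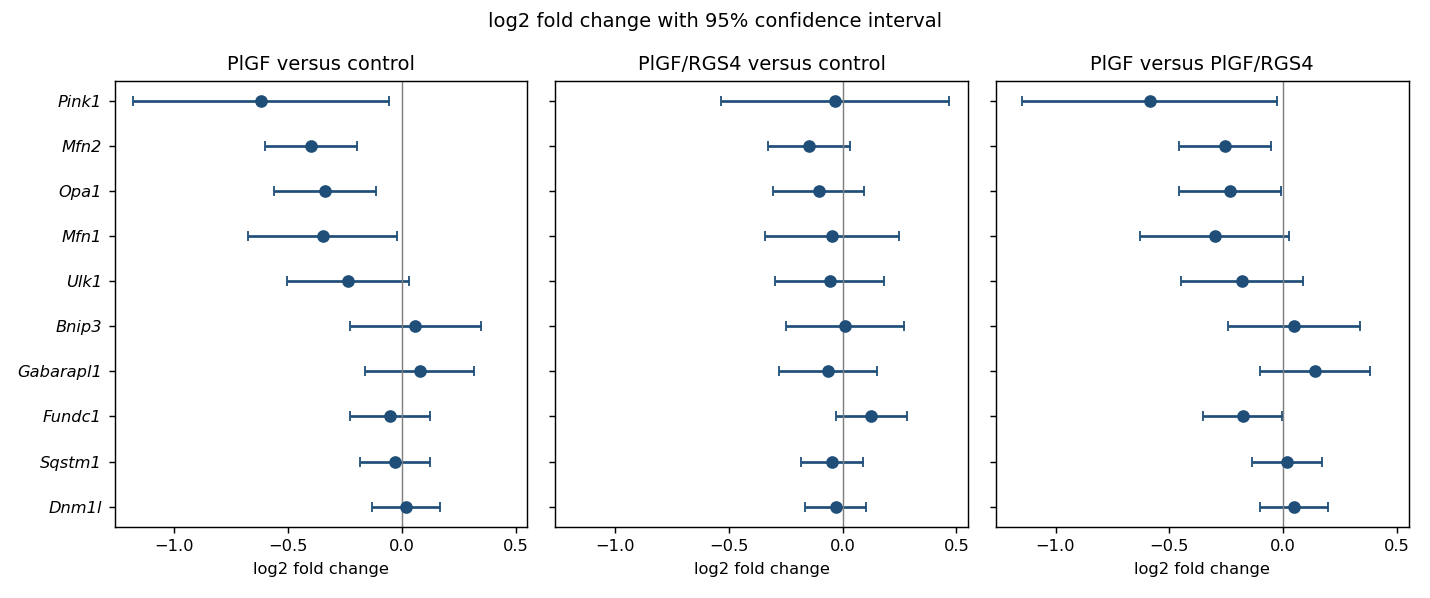
Log2 fold change (x axis) of the 10 genes in 3 panels, which set PlGF and then PlGF/RGS4 against control and, on the right, PlGF against PlGF/RGS4, from 1 limma fit to 8 arrays. Points are estimates and bars 95% confidence intervals; in PlGF versus control the intervals of Pink1, Mfn2, Opa1 and Mfn1 lie below 0, and that of Pink1 is the widest (−1.18 to −0.06).

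**Figure D3:**
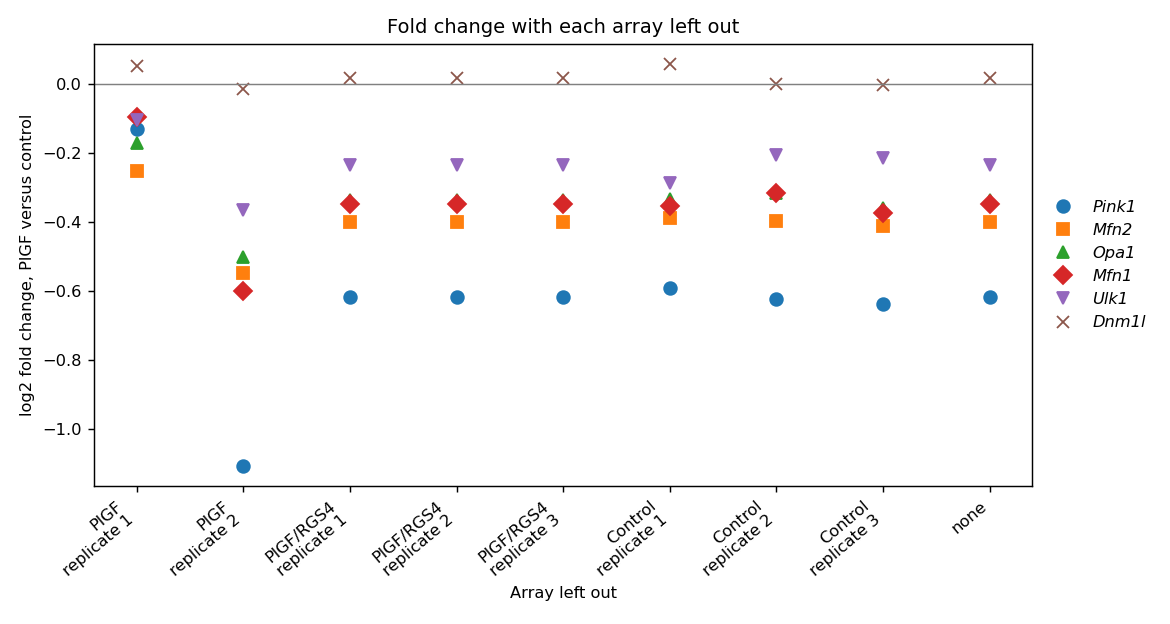
Log2 fold change of PlGF versus control (y axis) for Pink1, Mfn2, Opa1, Mfn1, Ulk1 and Dnm1l after omission of 1 of the 8 arrays at a time (x axis), and with all kept (rightmost). Pink1 lies at −0.13 without PlGF replicate 1 and at −1.11 without PlGF replicate 2, and omission of any other array moves Pink1, Mfn2, Opa1, Mfn1 and Ulk1 less than omission of either PlGF array does.

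Hearts labelled PlGF/RGS4 had no member that passed a test against control. The median log2 fold change of the members was −0.05, against 0.003 for all genes, and 0 of 10 were called (0.0151% of all genes were) or had an unadjusted p under 0.05 (2.28% of all genes were lower and 2.74% higher). Pink1 differed by −0.03 ± 0.21 (SE, interval −0.53 to 0.47, limma adjusted p = 0.998), Opa1 by −0.10 ± 0.09 (interval −0.30 to 0.10, limma adjusted p = 0.998) and Mfn1 by −0.05 ± 0.13 (interval −0.34 to 0.25, limma adjusted p = 0.998). Mfn2 was the only member whose arrays did not overlap, all 3 being below the controls as for 5.85% of all genes, with a change of −0.15 ± 0.08 (interval −0.33 to 0.03, limma adjusted p = 0.995). Its two-sided exact permutation test gave p = 0.1, the smallest that 3 against 3 arrays allow. Fundc1 differed by 0.13 ± 0.07 (limma adjusted p = 0.995).

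The direct comparison of PlGF with PlGF/RGS4 shares its PlGF arrays with that of PlGF with control. The members' median log2 fold change was −0.18, against −0.03 for all genes. Again 0 of 10 were called, with 1.19% of all genes called. At an unadjusted p under 0.05, 4 of 10 (Pink1, Fundc1, Mfn2 and Opa1) were lower and 0 higher, with 10.6% of all genes lower and 8.95% higher, and the arrays of 3 of 10 (Pink1, Mfn2 and Opa1) did not overlap, being lower in PlGF as for 19.9% of all genes. Pink1 differed by −0.59 ± 0.24 (SE, limma adjusted p = 0.241), Mfn2 by −0.25 ± 0.09 (limma adjusted p = 0.186), Opa1 by −0.23 ± 0.10 (limma adjusted p = 0.241) and Fundc1 by −0.18 ± 0.07 (limma adjusted p = 0.25). Without PlGF replicate 2 Pink1 stood at −1.08, Mfn2 at −0.40, Opa1 at −0.40 and Fundc1 at −0.28. Without PlGF replicate 1 they stood at −0.10, −0.11, −0.07 and −0.08, in the same order. Each of these fits keeps a single PlGF heart, so only sizes are given. With centring on the array median, 71% of all genes at an unadjusted p under 0.05 were lower in PlGF, against 54.2% without.

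The wider pathways were read through 81 other genes, in 7 lists drawn up from their known roles. In PlGF versus control 1 of the 81 was called lower and 0 higher, where 2.53% of all genes were called. At an unadjusted p under 0.05, 16 were lower and 6 higher, where 11.7% of all genes were lower and 10.9% higher, and the median was −0.04, against −0.03 for all genes. The list of fusion control was the lowest by median (−0.17), with 10 of 10 genes below 0, and it held the gene called. Both its rank and that count rested on PlGF replicate 1, where its median was −0.27 and 10 of 10 genes were below the control mean. In PlGF replicate 2 its median was −0.057, above those of the ATG8 (−0.061) and fission (−0.062) lists, and 3 of 10 genes were above the control mean. Oma1, the inner membrane protease that cleaves OPA1 under stress and so limits fusion, read 399.8 and 462.3 in the PlGF hearts and 574.3, 627.1 and 584 in the hearts labelled PlGF/RGS4, against 582.9, 591.8 and 582.4 in controls. Both PlGF values were well below the 6 others. Oma1 fell by 0.45 ± 0.07 on the log2 scale relative to control (SE, limma adjusted p = 0.0333) and by 0.47 ± 0.07 relative to PlGF/RGS4 (limma adjusted p = 0.0376), where it was again the single gene of the 81 called, with 13 lower and 2 higher at an unadjusted p under 0.05 (all genes 1.19% called, 10.6% lower and 8.95% higher). That call against PlGF/RGS4 was lost with Xist as a term (limma adjusted p = 0.0537) and without PlGF/RGS4 replicate 3 (limma adjusted p = 0.159). Against control the change was −0.34 without PlGF replicate 1 (limma adjusted p = 0.0644) and −0.55 without PlGF replicate 2 (limma adjusted p = 0.00149). With any 1 of the 6 arrays of the other groups left out, the size hardly moved (−0.45 to −0.44) but the limma adjusted p was 0.0603 to 0.121. With centring on the cardiomyocyte markers the change was −0.28 (limma adjusted p = 0.0909).

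**Figure D4:**
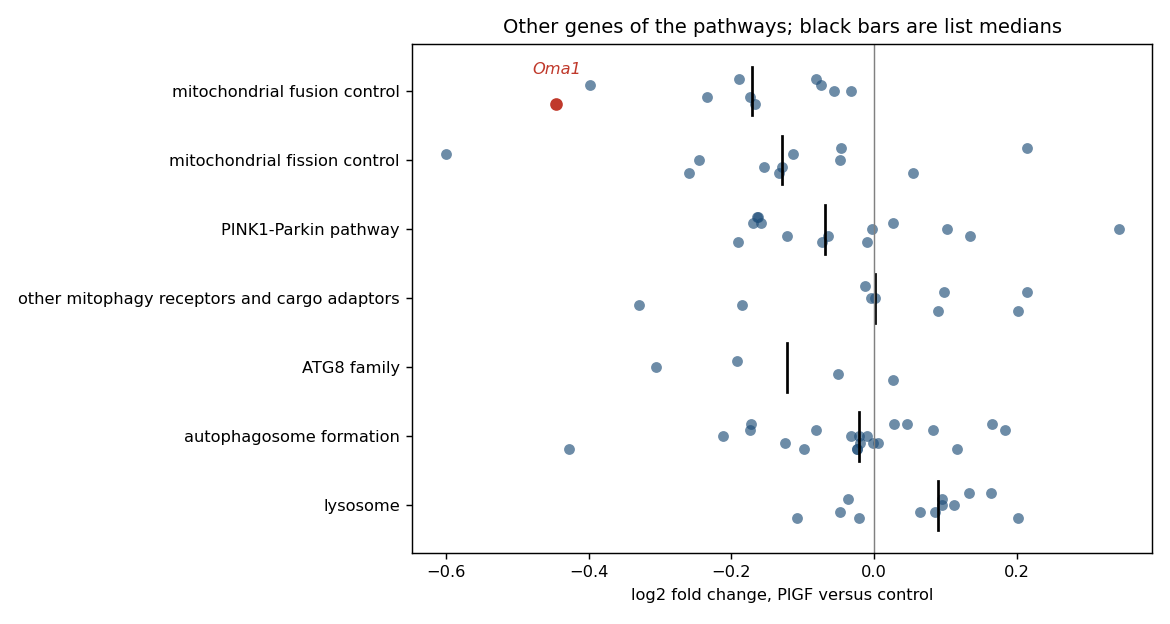
Log2 fold change (x axis) of PlGF versus control for 81 genes in 7 pathway lists (rows, 1 point per gene, spread vertically for legibility). Black bars are list medians and the red point is Oma1, called at a limma adjusted p of 0.0333; all 10 genes of fusion control lie left of 0 in this mean of both PlGF hearts, but 3 of them were above the control mean in PlGF replicate 2.

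Next to Oma1, Miga2, whose product aids fusion at the outer membrane, was just short of the threshold (408.7 and 445.9 in PlGF and 506.8, 506.8 and 528.3 on the arrays labelled PlGF/RGS4, against 530.3, 542.2 and 620.6 in controls, −0.40 ± 0.08, limma adjusted p = 0.0501). Of 11 genes of fission control 0 were called, 9 were below 0 and the median was −0.13. The outer membrane ubiquitin ligase Mul1 stood at −0.26 ± 0.06 (limma adjusted p = 0.0675) and the DRP1 receptor Mief2 at −0.25 ± 0.06 (limma adjusted p = 0.0705). Mtfp1, an inner membrane fission factor named after its values were seen, had the lowest fold change of all 81 genes, with 843.7 and 1298.2 in PlGF and 1423.3, 1525.4 and 1453.8 on the arrays labelled PlGF/RGS4, against 1717.9, 1534.1 and 1515.5 in controls (−0.60 ± 0.16, limma adjusted p = 0.0929).

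The remaining lists had medians nearer 0 or above it, and 0 genes called. In the PINK1-Parkin list (14 measured, median −0.07), 3 were lower and 1 higher at an unadjusted p under 0.05. Of all genes 11.7% were lower and 10.9% higher at that threshold. Tbk1, the kinase that phosphorylates cargo adaptors and also acts in innate immunity, read 432.9 and 357.8 in PlGF and 328.3, 320.9 and 287.1 on the arrays labelled PlGF/RGS4, against 289.4, 320.9 and 320.9 in controls (0.34 ± 0.10, limma adjusted p = 0.108). The leukocyte markers given above were higher in the same 2 hearts, and their part in the value of Tbk1 was not tested. Phb2, an inner membrane protein that binds LC3, stood at −0.19 ± 0.07 (limma adjusted p = 0.147). Among 9 other receptors and adaptors (median 0.001), the mitophagy receptor Fkbp8 stood at 0.21 ± 0.06 in PlGF (limma adjusted p = 0.0855) and at 0.18 ± 0.05 in PlGF/RGS4 (limma adjusted p = 0.858), both against control, and Bcl2l13, the mammalian relative of yeast Atg32, at −0.19 ± 0.06 in PlGF (limma adjusted p = 0.139).

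The 4 other ATG8 genes had a median of −0.12. Map1lc3b, which encodes the usual autophagosome marker LC3B, read 3445.2 and 3725 in PlGF and 4299.1, 4454 and 4230.4 on the arrays labelled PlGF/RGS4, against 3820.6, 4286.5 and 4187.9 in controls (−0.19 ± 0.07, limma adjusted p = 0.154). Both PlGF hearts were below all 6 others, unlike for Gabarapl1. Map1lc3a stood at −0.31 ± 0.12 (limma adjusted p = 0.196), with PlGF replicate 2 inside the control range. In autophagosome formation (21 genes, median −0.02) the LC3-conjugating enzyme Atg3 stood at 0.18 ± 0.06 (limma adjusted p = 0.137) and the LC3-processing protease Atg4a at 0.17 ± 0.06 (limma adjusted p = 0.157). These were the 2 genes with the smallest p, but 14 of the 21 were below 0. At an unadjusted p under 0.05, 2 were higher and 2 lower, where 10.9% of all genes were higher and 11.7% lower. The lower ones of this list, named after their values were seen, were Rb1cc1 (−0.21 ± 0.08, limma adjusted p = 0.185) and Atg9a (−0.17 ± 0.07, limma adjusted p = 0.217). The 12 lysosome genes had a median of 0.09, with 8 above 0, among them the membrane protein Lamp2 (0.13 ± 0.04, limma adjusted p = 0.139) and the transcription factor Tfe3 (0.16 ± 0.06, limma adjusted p = 0.167). In PlGF/RGS4 versus control 0 of the 81 genes were called, where 0.0151% of all genes were. At an unadjusted p under 0.05, 0 were lower and 4 higher, where 2.28% of all genes were lower and 2.74% higher.

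Among the members themselves, the 3 fusion genes followed one another over the 8 arrays, and 2 of their 3 pairs still did so, less closely, over the 7 without PlGF replicate 1. As a description over arrays that share groups, Pearson's r of log2 values was 0.966 between Mfn1 and Opa1 (0.812 over the 7) and 0.941 between Mfn2 and Opa1 (0.763 over the 7), but between Mfn1 and Mfn2 it was 0.844 and, over the 7, 0.249. Pink1 and Mfn1 had r = 0.909 over 8 arrays and −0.231 over 7, so their likeness rested on that heart. Bnip3 and Gabarapl1 went together with or without it (0.872 and 0.877), both being lowest in control replicate 1.

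Outside the members, the genes above the median level most like Pink1 over the 8 arrays were Ech1 (r = 0.9985), an enzyme of fatty acid oxidation, Cox14, a cytochrome oxidase assembly factor, Phpt1, Mrgprh and Fitm1 (r = 0.9945). Ech1 read 3089.5 and 6377 in PlGF and 6878.6, 6336.1 and 7130.2 on the arrays labelled PlGF/RGS4, against 7142.9, 6929.9 and 6982.9 in controls, with PlGF replicate 1 far below the other 7. Over the 7 arrays without it the 5 most like Pink1 were others, led by Dele1 (r = 0.967), a mitochondrial protein that signals stress to the cytosol, then Pja2, Pole4, Id1 and Tsc22d2. Dele1 read 749.6 and 1205.6 in PlGF and 1351.8, 1173.6 and 1368.3 on the arrays labelled PlGF/RGS4, against 1366.3, 1317.5 and 1319 in controls.

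Most like Mfn2 were Egf (r = 0.993), Pgm2l1, Mrpl44, Ces1d and Fhod3. Ces1d, a lipid hydrolase, read 123.4 and 742.9 in PlGF and 1327.4, 840.3 and 1327.4 on the arrays labelled PlGF/RGS4, against 2195.6, 2042.4 and 2185.4 in controls, and thus had the same order of groups as Mfn2 over a far wider range. Most like Ulk1 was Ciart (r = 0.971), a repressor in the circadian clock, with 205.5 and 519 in PlGF and 726.2, 306.6 and 639.1 on the arrays labelled PlGF/RGS4, against 557, 1057 and 872.2 in controls, followed by Naa50, Dtymk, Slc49a4 and Pcf11. The genes most like Bnip3 were Supt5 (r = 0.919), Nfe2l2, which encodes the antioxidant regulator NRF2, the autophagy gene Becn1, Vat1 and Vps37c. These 4 sets were picked from 9966 genes by the height of r, which is therefore a description. For Mfn2, Ulk1 and Bnip3, r was not computed without PlGF replicate 1. That array was the lowest for each gene listed as most like Mfn2 or Ulk1.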

How the data were processed

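The deposited values are linear intensities that the authors made with MAS 5.0 and global scaling from Affymetrix Mouse Gene 1.0 ST arrays, as the methods state; the submitters' processing notes name MAS too. Array medians were 111.1 to 115.2. Of 2147 genes above 1000 units, 23.2% had the same value to 1 decimal on at least 2 arrays, which scaling by 1 factor per array would rarely give, and any further step is not given in the sources used here. No genome build is given for the arrays; names, chromosomes and promoter windows come from RefSeq on GRCm38.p6.

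Of 28440 probe sets, 21780 had 1 gene symbol, 1618 had several and 5042 had none here. The brightest per gene was kept (19933 genes). Log2 of intensity plus 1 was fitted with limma 3.58.1 in R 4.3.3 (lmFit, eBayes; prior 2.41 degrees of freedom), with all 8 arrays and 3 group means, and p-values were adjusted by Benjamini-Hochberg over all genes, with a threshold of 0.05. A fold change is on the log2(intensity + 1) scale, and values of different genes come from different probes and were not compared. The number of arrays limits the precision, and the spread between arrays holds both the animals and the measurement. The fit was tested on simulated data with independent noise of the same spread on every array. No simulated array stood apart as PlGF replicate 1 did, so that test does not bear on its part in the results.

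The named genes were the 10 members, Pgf, Rgs4 and Xist; per pathway list, each gene called in any comparison and the 2 with the smallest unadjusted p in PlGF versus control; and, for Pink1, Mfn2, Ulk1 and Bnip3, the 5 genes above the median level with the highest Pearson r. Of 85 listed pathway genes 81 were measured. The members and lists were chosen with earlier results of these data known. Alternatives were quantile normalization, centring on the array median, genes above the median level, array weights, the mean of all probe sets, a prior with trend and robust settings, a fit of only the 2 groups compared, the methods' t-test, a pseudocount of 16, the replicate number as a block, Xist as a term, and each array left out; centring on 10 cardiomyocyte markers was added after seeing the data.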

Additional observations from a re-analysis of the deposited data

How the results depend on the processing

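Counts of calls moved widely with the arrays kept. Members called numbered 0 in all 3 comparisons, and 0 with any 1 PlGF/RGS4 or control array left out. Without a PlGF array a single PlGF heart remains. For those repeats, members called and genes called over all genes are not given for comparisons with PlGF. The ranges below for members at an unadjusted p under 0.05 in PlGF versus control and for pathway genes called include those repeats. Their upper ends come from the fit without PlGF replicate 2, which rests on PlGF replicate 1 alone. They are therefore not read as results. With any 1 PlGF/RGS4 or control array left out, these were 2 to 4 members and 0 pathway genes in PlGF versus control. Genes called in PlGF versus control over all genes numbered 505, against 17 to 61 without any 1 PlGF/RGS4 or control array. They numbered 131 with array weights, 0 with only the 2 groups compared and 4 by the methods' t-test.

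Under the median centring 1 member was called in PlGF versus control. Members at an unadjusted p under 0.05 in PlGF versus control numbered 4 and, with arrays left out, 2 to 5; they were 2 with only the 2 groups compared and 1 by the methods' t-test. In PlGF/RGS4 versus control they numbered 0, and 0 to 2 with arrays left out, 2 with array weights, 2 with only the 2 groups compared, 1 by the methods' t-test and 1 with centring on cardiomyocyte markers. In PlGF versus PlGF/RGS4 they numbered 4, and 0 to 2 with a PlGF/RGS4 or control array left out. They were 2 with quantile normalization, 2 with array weights, 2 with the Xist term and 1 with centring on cardiomyocyte markers. They were 0 with only the 2 groups compared or by the methods' t-test. Pathway genes called lower numbered 1 in PlGF versus control (3 with quantile normalization, 0 to 18 with arrays left out) and 1 in PlGF versus PlGF/RGS4 (0 with the Xist term, 0 to 20 with arrays left out). Oma1, the gene called, missed the threshold in PlGF versus control with array weights (limma adjusted p = 0.0984), with only the 2 groups compared (0.2), by the methods' t-test after Benjamini-Hochberg (0.523) and with the block (0.0918). Pathway genes called higher numbered 0 (0 to 9 and 0 to 6 with arrays left out).

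Same-numbered arrays deviated from their group means with correlations of −0.217 to 0.296. Arrays of different numbers were not compared in this way, so these values cannot show whether the replicate numbers pair the arrays. With the replicate number as a block, 27 genes were called in PlGF versus control, 2 members were at an unadjusted p under 0.05 in PlGF versus PlGF/RGS4, and Dnm1l stood at −0.0043 in PlGF versus control.

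Some small values changed sign. In PlGF versus control these were Sqstm1 (0.022 with quantile normalization, 0.133 with centring on cardiomyocyte markers), Dnm1l (−0.034 with median centring) and Fundc1 (0.110 with centring on cardiomyocyte markers), and with arrays left out Bnip3 (−0.059 to 0.143), Fundc1 (−0.153 to 0.047), Sqstm1 (−0.078 to 0.017), Gabarapl1 (−0.025 to 0.180) and Dnm1l (−0.015 to 0.057). In PlGF/RGS4 versus control, centring on cardiomyocyte markers gave 0.00054 for Pink1 and 0.0034 for Dnm1l, and with arrays left out the ranges were −0.059 to 0.015 for Pink1, −0.107 to 0.087 for Bnip3, −0.093 to 0.0023 for Sqstm1, −0.150 to 0.014 for Gabarapl1, −0.109 to 0.034 for Ulk1, −0.068 to 0.0097 for Dnm1l and −0.016 to 0.047 for Oma1. In PlGF versus PlGF/RGS4, Sqstm1 stood at −0.031 with median centring, and with arrays left out Bnip3 ran from −0.036 to 0.132 and Sqstm1 from −0.014 to 0.045. Pink1, Mfn1, Mfn2, Opa1 and Oma1 stayed below control in PlGF under all alternatives run; the cause of the changes was not tested.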
